A study of Homo sapiens with 2 samples.

Results

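A total of 67 protein-coding genes were read as on in 1 of 2 MIA PaCa-2 cultures and off in the other. MIA PaCa-2 is an established human pancreatic cancer cell line. The control culture carried a guide against GFP (sgGFP, genotype labelled WT), a jellyfish gene that human cells lack, and the other carried a guide against TPST2 (sgTPST2, genotype labelled TPST2 KD). TPST2 encodes a Golgi enzyme that adds sulfate to tyrosines of proteins on their way to the cell surface. Each culture gave 1 total RNA library. The sources used here do not say whether a culture was 1 clone or a pool, nor how the guide acted, so a difference between the guides and a difference between any 2 cultures of the line cannot be told apart.

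The genes were chosen from the values themselves. A gene was taken where its level was under 0.05 FPKM (a fragment count divided by transcript length and by library size) in 1 culture and above 0.3 FPKM in the other, where the authors had tested it (status OK), and where it was protein-coding. Clone-based and hyphenated symbols and the HOXB, KLK, MT1, COL and ZNF symbols, PTX3 and SPARC were left out. Of the 58698 genes in the table, 18574 had status OK and 12580 of those were protein-coding. The rule then gave 55 genes on in sgGFP and 12 on in sgTPST2. Before symbols were left out, 72 protein-coding genes met the levels in the first direction, a background of 0.572% of the genes tested, and 17 met them in the second, 0.135%. Over the 18574 genes of every type the shares were 1.68% and 1.45%. Since the levels chose the genes, the differences given here describe the choice and are not tested.

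Some of the 67 are best known from 1 organ or cell type, as RYR2 from heart, ABCA4 from retina and CD22 from B cells. How the 67 are expressed across tissues was not examined. Within a culture, a low average level can come from a few cells with many transcripts or from many cells with few, and RNA of a whole culture cannot separate the 2 cases. The guanylate-binding proteins, to which GBP4 belongs, are large GTPases that cells make in response to interferons. Their promoters often hold an interferon-stimulated response element. The FGF homologous factors FGF12 and FGF13 are not secreted growth factors but stay in the cell and bind voltage-gated sodium channels. The ryanodine receptor RYR2 is the calcium release channel of the heart muscle's sarcoplasmic reticulum.

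Promoter windows are shown for 4 of these genes. GBP4 is shown because its relatives GBP1, GBP2 and GBP3 within 500 kb were also higher in sgTPST2. The related FGF12 and FGF13 were on in opposite cultures, and RYR2 had the highest level of all 67. Each window runs from 250 bases before to 50 after the annotated start, 5′ to 3′ on the gene's strand, from RefSeq on GRCh38.p14. GBP4 is at chr1:89198893-89199192 (minus strand), FGF12 at chr3:192727492-192727791 (minus), FGF13 at chrX:139204974-139205273 (minus) and RYR2 at chr1:237041934-237042233 (plus). For FGF12 and FGF13 the table lists 2 windows each, and the first is shown. Capitals mark the response element letters in GBP4 and every CG dinucleotide in the other 3.
GBP4: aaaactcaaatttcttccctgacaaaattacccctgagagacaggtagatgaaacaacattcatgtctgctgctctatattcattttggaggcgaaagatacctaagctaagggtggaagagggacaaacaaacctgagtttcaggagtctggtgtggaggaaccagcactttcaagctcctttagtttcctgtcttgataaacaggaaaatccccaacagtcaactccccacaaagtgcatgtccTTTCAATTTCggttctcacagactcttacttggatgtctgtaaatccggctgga
FGF12: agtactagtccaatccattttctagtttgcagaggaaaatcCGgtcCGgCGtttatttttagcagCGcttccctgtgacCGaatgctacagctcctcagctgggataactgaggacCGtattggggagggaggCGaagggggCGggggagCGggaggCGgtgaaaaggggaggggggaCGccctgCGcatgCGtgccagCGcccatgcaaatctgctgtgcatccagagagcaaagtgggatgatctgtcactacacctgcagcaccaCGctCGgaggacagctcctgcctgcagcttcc
FGF13: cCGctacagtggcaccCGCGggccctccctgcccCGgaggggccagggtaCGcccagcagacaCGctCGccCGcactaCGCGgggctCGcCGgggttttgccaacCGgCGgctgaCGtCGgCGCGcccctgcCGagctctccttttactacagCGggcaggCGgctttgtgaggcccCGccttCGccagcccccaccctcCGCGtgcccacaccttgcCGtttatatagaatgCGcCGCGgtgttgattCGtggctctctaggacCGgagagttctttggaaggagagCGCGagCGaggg
RYR2: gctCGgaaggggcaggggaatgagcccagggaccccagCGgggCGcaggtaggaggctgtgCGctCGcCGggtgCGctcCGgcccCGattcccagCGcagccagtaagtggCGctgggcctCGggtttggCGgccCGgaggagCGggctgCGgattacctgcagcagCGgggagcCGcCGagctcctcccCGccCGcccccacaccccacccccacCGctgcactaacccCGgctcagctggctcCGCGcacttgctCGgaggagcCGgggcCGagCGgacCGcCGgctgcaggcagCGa
The GBP4 window holds TTTCAATTTC at its bases 247 to 256, which on the opposite strand is the core searched for, GAAA, then any 2 bases, then GAAA. Its first base lies 4 bases before the start. Searched on both strands, this core occurred in 3.65% of the 27305 promoter windows. GBP4 has 3 CG dinucleotides, FGF12 16, FGF13 34 and RYR2 32, against a median of 14 over all windows. The GBP4 window is thus among the 25.3% with at most 3, and the FGF13 window among the 15.3% with at least 34. Each match describes letters in a window, not a site in use.

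The targeted gene was measured in both cultures. TPST2 (chromosome 22, 26521983 to 26596717, GRCh38) stood at 8.46 FPKM in sgGFP and 1.92 FPKM in sgTPST2. Its paralogue TPST1 stood at 14.2 and 16.2 FPKM. The low values in the table fell on steps, so that for a transcript of 1 kb a level of 1 FPKM was read as 42 fragments (sgGFP) or 47.6 fragments (sgTPST2). The 6 epithelial markers summed to 1283 FPKM in sgGFP and 139.9 in sgTPST2, although 2 defining ones, EPCAM and CDH1, were at or near 0 in both. The mesenchymal list, nearly all of it VIM, summed to 2661.5 and 3118 FPKM. Endothelial markers summed to 3.1 and 0.282 FPKM, nearly all of it CDH5, with PECAM1 and KDR listed at 0. Leukocyte markers summed to 3.49 and 1.51 FPKM, nearly all of it CD68, with CD3E listed at 0. Neural markers summed to 5.69 and 2.47 FPKM, although GFAP alone was higher in sgTPST2, at 0.0719 and 0.283 FPKM. Acinar, islet, erythroid and germ cell markers were listed at 0 in both. The part of these marker shifts in the on/off genes was not tested.

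Every gene sat low even where it was on. In the 55 genes on in sgGFP the on level ran from 0.317 to 3.21 FPKM with a median of 0.51, and 9 reached 1 FPKM. In sgTPST2, 17 of them were listed at 0 and 38 lay between 0.00127 and 0.0494 FPKM. In the 12 genes on in sgTPST2 the on level ran from 0.301 to 0.667 FPKM with a median of 0.385, and 0 reached 1 FPKM. In sgGFP, 5 of these were listed at 0 and 7 lay between 0.00398 and 0.0479 FPKM. The median over all protein-coding genes tested was 11.9 FPKM in both cultures, and 12.2% of them stayed under 1 FPKM in both, so the on/off genes come from the bottom of the range.

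**Figure D1:**
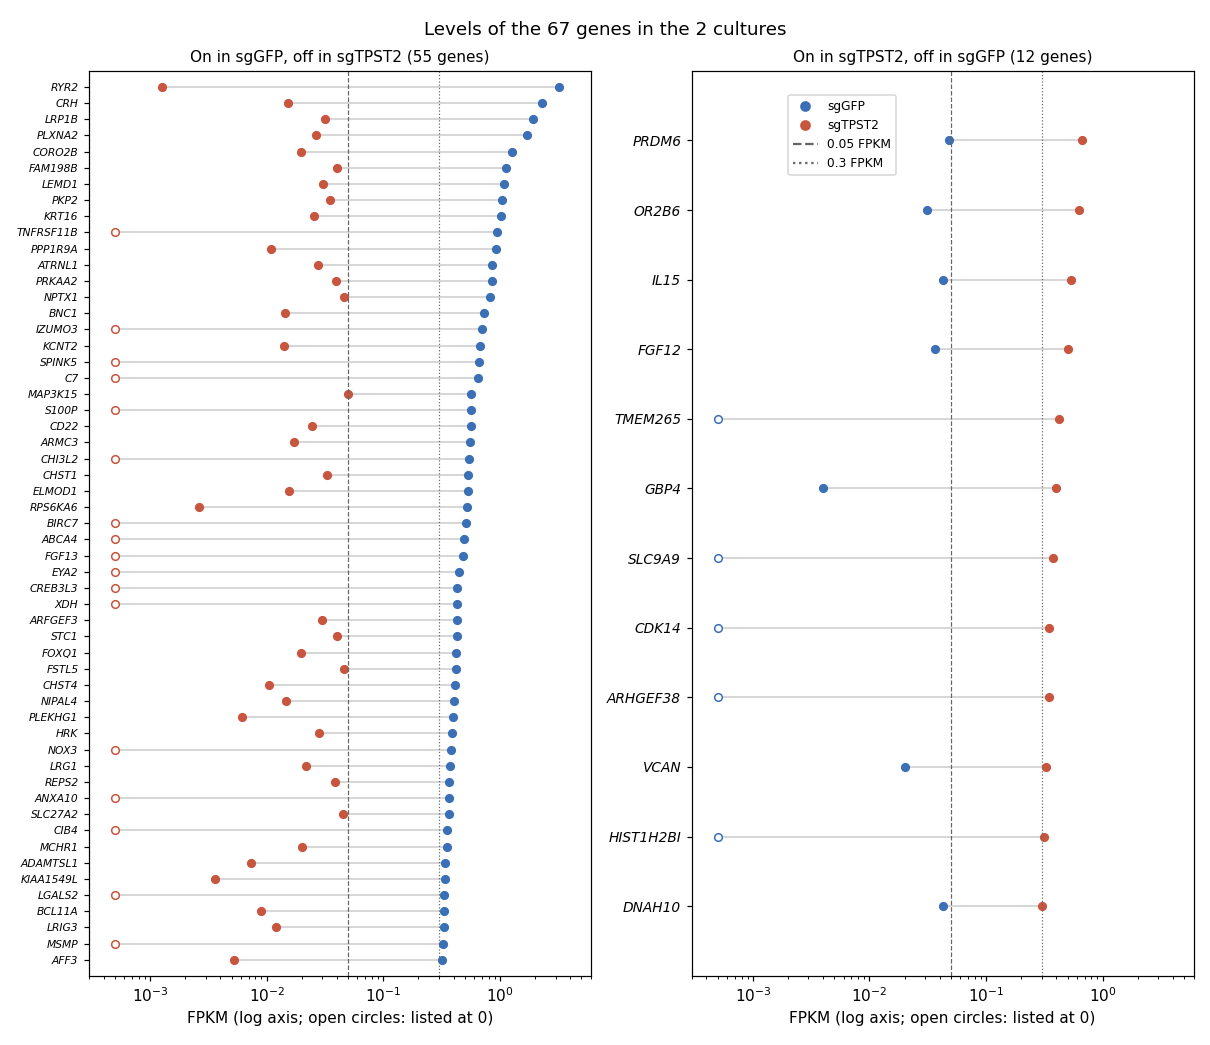
Level of each of the 67 genes in sgGFP (blue) and sgTPST2 (red), in FPKM on a log axis, 1 row per gene, with open circles for values listed at 0 and lines at 0.05 and 0.3 FPKM. The 55 genes on in sgGFP reach 3.21 FPKM (RYR2), and the 12 on in sgTPST2 reach 0.667 FPKM (PRDM6).

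The number of fragments behind these levels differs more than the levels do, because transcripts differ in length. With the longest coding transcript of each gene, the genes on in sgGFP rested on 5.77 to 2210 estimated fragments where on (median 91.2) and on 0 to 24.8 where off (median 2.18), and 37 of the 55 had about 3 or fewer where off. The genes on in sgTPST2 rested on 3.18 to 289 fragments where on (median 99.3) and on at most 25.5 where off. These are estimates for genes with several transcripts, since the table does not say which transcript was used. Exact 95% Poisson intervals of the 2 levels cover counting error only. They were apart for 53 of 55 genes in the first direction and 11 of 12 in the second. The same levels chose the genes, so this was largely set by the choice and is not a test. The intervals overlapped for LGALS2 (5.77 and 0 fragments), MSMP (6.67 and 0) and the histone gene HIST1H2BI (0 and 3.18), which rested on the fewest fragments where on. Overlap of 2 separate intervals does not settle whether the counts differ, and this was not tested.

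**Figure D2:**
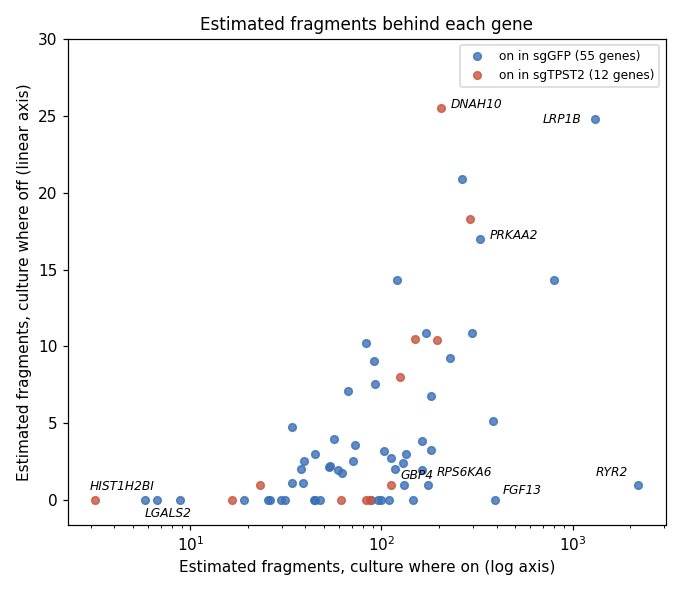
Estimated fragments of each gene in the culture where it was on (log axis) against the culture where it was off (linear axis). Blue points are the 55 genes on in sgGFP and red points the 12 on in sgTPST2, and most of them lie on or near 0 in the culture where they were off.

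The authors' deposited table gives its own p-values and q-values, made from 1 library a condition, and the sources used here do not give its dispersion setting. Of the 55 genes on in sgGFP, 15 have a q-value under 0.05 in the authors' deposited table, and 0 of the 12 on in sgTPST2 do, where the lowest q-value is 0.52. Of the 12580 protein-coding genes, 0.676% pass that level in the same table. The q-values rest on the same levels that chose the genes. A larger share among the 55 was therefore largely set by the choice and is not a test. Of the 15, 12 are listed at 0 in sgTPST2 and 3 are not. RYR2, with the highest level, has q = 0.99965 in the authors' deposited table, and CRH, with the next highest, has the same q.

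Among the roles assigned to the on/off genes, secreted and extracellular proteins were the largest on in sgGFP, with 12 genes between 0.324 and 2.29 FPKM. No share of these roles over all tested protein-coding genes was taken. The role counts here and below therefore describe the on/off genes alone, and whether a role was more common among them was not tested. CRH, corticotropin-releasing hormone, the peptide that starts the stress response of the pituitary, stood at 2.29 FPKM in sgGFP and 0.0153 FPKM in sgTPST2 (chromosome 8, 66176382 to 66178725), which is about 131 and 1 fragments. TNFRSF11B, the decoy receptor osteoprotegerin that binds the bone resorption signal RANKL, stood at 0.938 FPKM in sgGFP and was listed at 0 in sgTPST2. NPTX1, a neuronal pentraxin, stood at 0.822 and 0.0464 FPKM. CRH and NPTX1 are best known from the brain, and TNFRSF11B from bone. The complement protein C7, a part of the membrane attack complex, stood at 0.642 FPKM and was listed at 0, as was SPINK5, a skin serine protease inhibitor, at 0.657 FPKM. FSTL5, a follistatin-like protein, stood at 0.422 and 0.0458 FPKM. LRG1, a leucine-rich glycoprotein of plasma, stood at 0.373 and 0.0219 FPKM. The others were the stanniocalcin STC1, the chitinase-like protein CHI3L2, the microseminoprotein MSMP, the ADAMTS-like matrix protein ADAMTSL1 and the galectin LGALS2, and 6 of the 12 in all were listed at 0 in sgTPST2. In the opposite direction there were 2 secreted proteins. IL15, a cytokine that sustains natural killer cells and memory T cells, stood at 0.0429 FPKM in sgGFP and 0.534 FPKM in sgTPST2 (chromosome 4, 141636599 to 141733987). VCAN, the matrix proteoglycan versican, stood at 0.02 and 0.329 FPKM.

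Receptors, adhesion and other surface proteins gave 8 genes on in sgGFP and 1 on in sgTPST2. LRP1B, a giant endocytic receptor of the LDL receptor family, stood at 1.91 FPKM in sgGFP and 0.0319 FPKM in sgTPST2 (chromosome 2, 140231423 to 142131701), about 1310 and 24.8 fragments. PLXNA2, a receptor for semaphorin guidance cues, stood at 1.69 and 0.0267 FPKM. PKP2, a desmosomal plaque protein, stood at 1.04 and 0.0346 FPKM. These are among the better read genes, since PLXNA2 rested on 801 and PKP2 on 181 fragments in sgGFP. ATRNL1, an attractin-like membrane protein, stood at 0.853 and 0.0275 FPKM. IZUMO3, from the family of the sperm fusion protein IZUMO1, stood at 0.705 FPKM and was listed at 0. CD22, a B cell inhibitory lectin, MCHR1, the receptor of melanin-concentrating hormone, and LRIG3, a leucine-rich membrane protein, completed the group. The 1 gene on in sgTPST2 was OR2B6, an olfactory receptor, at 0.0314 FPKM in sgGFP and 0.632 FPKM in sgTPST2.

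Channels, transporters and channel partners gave 6 genes on in sgGFP and 2 on in sgTPST2. RYR2 (chromosome 1, 237042205 to 237833988) stood at 3.21 FPKM in sgGFP, about 2210 fragments, and at 0.00127 FPKM in sgTPST2, about 1 fragment. The CG-rich window printed above is its own. KCNT2, a sodium-activated potassium channel, stood at 0.68 and 0.0141 FPKM. FGF13 (chromosome X, 138614731 to 139222777) stood at 0.486 FPKM in sgGFP and was listed at 0 in sgTPST2, while FGF12 (chromosome 3, 192139395 to 192767764) stood at 0.0364 FPKM in sgGFP and 0.502 FPKM in sgTPST2. Thus the 2 members of this family in the set were on in opposite cultures. The remaining genes on in sgGFP were ABCA4, the lipid transporter of photoreceptors, at 0.49 FPKM, the fatty acid transporter SLC27A2 at 0.365 FPKM and the magnesium transporter NIPAL4 at 0.406 FPKM. SLC9A9, an endosomal sodium-proton exchanger, was listed at 0 in sgGFP and stood at 0.374 FPKM in sgTPST2.

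Kinases and other signalling proteins gave 10 genes on in sgGFP and 2 on in sgTPST2. PPP1R9A, the actin-binding phosphatase scaffold neurabin, stood at 0.923 FPKM in sgGFP and 0.011 FPKM in sgTPST2. PRKAA2, a catalytic subunit of the energy sensor AMPK, stood at 0.852 and 0.0389 FPKM. RPS6KA6, a ribosomal S6 kinase, stood at 0.523 and 0.00261 FPKM, about 175 and 1 fragments. MAP3K15, a stress kinase, had the highest off level of the 55 at 0.0494 FPKM, beside 0.566 FPKM in sgGFP. S100P, a small calcium-binding protein known from pancreatic tumours, and CIB4, another calcium-binding protein, were listed at 0 in sgTPST2 and stood at 0.562 and 0.353 FPKM. PLEKHG1, ARFGEF3, ELMOD1 and REPS2, which act around small GTPases or endocytosis, made up the rest. On in sgTPST2 were CDK14, a cyclin-dependent kinase, at 0.348 FPKM, and ARHGEF38, a guanine nucleotide exchange factor, at 0.344 FPKM, both listed at 0 in sgGFP.

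Transcription factors and chromatin proteins gave 6 genes on in sgGFP, between 0.317 and 0.723 FPKM. BNC1, the zinc finger protein basonuclin of squamous epithelia, stood at 0.723 FPKM in sgGFP and 0.0143 FPKM in sgTPST2. CREB3L3, a membrane-bound factor of liver and gut, stood at 0.432 FPKM and was listed at 0. EYA2, a phosphatase coactivator, stood at 0.45 FPKM and was listed at 0. Each of these was low in both cultures by the standard of all genes. BCL11A, a repressor of fetal globin genes, AFF3, an AFF family elongation factor, and the forkhead factor FOXQ1 stood at 0.33, 0.317 and 0.424 FPKM in sgGFP, and at 0.00902, 0.00524 and 0.0196 FPKM in sgTPST2. Another 2 such genes were on in sgTPST2. PRDM6, a zinc finger regulator of smooth muscle, had the highest level of the 12, at 0.0479 FPKM in sgGFP and 0.667 FPKM in sgTPST2. HIST1H2BI encodes a replication-dependent histone whose RNA has no poly(A) tail, and it rested on 3.18 fragments.

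Enzymes gave 5 genes on in sgGFP and none on in sgTPST2. FAM198B, a Golgi membrane protein, stood at 1.13 FPKM in sgGFP and 0.0403 FPKM in sgTPST2. The carbohydrate sulfotransferases CHST1 and CHST4, which sulfate sugars of glycoproteins where TPST2 sulfates tyrosine, stood at 0.53 and 0.415 FPKM in sgGFP and at 0.0329 and 0.0104 FPKM in sgTPST2. XDH, the xanthine dehydrogenase of purine breakdown, and NOX3, an NADPH oxidase of the inner ear, stood at 0.429 and 0.383 FPKM and were listed at 0 in sgTPST2. Cell death regulators on in sgGFP numbered 2, the BH3-only gene HRK at 0.391 FPKM and the inhibitor of apoptosis BIRC7 at 0.51 FPKM.

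The cytoskeletal group held 3 genes on in sgGFP and 1 on in sgTPST2. CORO2B, a coronin that binds actin, stood at 1.26 FPKM in sgGFP and 0.0199 FPKM in sgTPST2. KRT16, a keratin of stressed epidermis, stood at 1.01 and 0.0255 FPKM. KRT8, KRT18 and KRT19, which make up nearly all of the epithelial marker sum, were also lower in sgTPST2. ANXA10, an annexin of gastric epithelium, stood at 0.367 FPKM and was listed at 0. The gene on in sgTPST2 was DNAH10, a dynein heavy chain of cilia, at 0.0425 and 0.301 FPKM. GBP4 (chromosome 1, 89181148 to 89198932) stood at 0.00398 FPKM in sgGFP, about 1 fragment, and 0.396 FPKM in sgTPST2, about 112 fragments. No role was assigned to LEMD1, at 1.08 and 0.0304 FPKM, nor to ARMC3, KIAA1549L and TMEM265.

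Counts were made over the 67 genes for 30 lists of gene families and roles. Of these lists, 15 held at least 1 of the genes, 25 of the 67 genes were in a list and 42 were in none. The lists were matched by symbol and miss some relatives. The kinases CDK14 and RPS6KA6, for example, are in none, although a list of signalling kinases was counted. The counts therefore depend on the symbols searched. The list of growth factors and morphogens held 3, which is 3.95% of its 76 tested genes, beside 0.533% of all tested protein-coding genes. Its name fits only by symbol for FGF12 and FGF13, which act inside the cell, and the third is the secreted FSTL5. Neuropeptides and hormones held 2 of 18 (CRH and STC1, 11.1%) and keratins 1 of 10 (KRT16, 10%). The remaining lists with any of the 67 held 1 or 2.

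Close relatives of the genes, and for some their partners, were read to see whether a group went off as a whole. Of 157 genes in 30 groups, 32 were among the 67, and 68 of the others reached 1 FPKM. Most groups were families, but those of CRH, IL15 and RANKL also held receptors or binding proteins of the ligand. Of those 68, 6 were at least 1.5-fold lower and 6 at least 1.5-fold higher in sgTPST2 on the log2(FPKM + 1) scale, against 5.9% lower and 3.16% higher over all 11043 protein-coding genes at that level. In several families a relative at a far higher level differed little. PRKAA1, the other catalytic AMPK subunit, stood at 69 and 72.7 FPKM beside PRKAA2. Among the ribosomal S6 kinases, RPS6KA1 stood at 21.1 and 21.2 FPKM and RPS6KA3 at 19.9 and 17.7 FPKM beside RPS6KA6. PLXNA1 stood at 38.1 and 29.2 FPKM, while PLXNA3 stood at 3.32 and 6.59 FPKM. Neither relative of RYR2 took a like course, with RYR1 at 0.00317 FPKM and listed at 0, and RYR3 at 0.512 and 0.349 FPKM.

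Of the guanylate-binding proteins, 3 relatives of GBP4 were also higher in sgTPST2. GBP1 stood at 0.457 FPKM in sgGFP and 5.97 FPKM in sgTPST2, GBP2 at 2.44 and 8.77 FPKM and GBP3 at 0.784 and 3.1 FPKM. GBP5 and GBP6 were listed at 0 in both, and GBP7 stood under 0.05 FPKM in both. Of the FGF homologous factors, FGF11 and FGF14 were listed at 0 in both. Of the 15 CHST sulfotransferases, CHST1 and CHST4 were the 2 read as off, and 8 others reached 1 FPKM. Of these 8, 1 was at least 1.5-fold lower, CHST10 at 10.8 and 6.49 FPKM, and 0 were at least 1.5-fold higher. CHST11, at 1.17 and 0.495 FPKM, and CHST7 were also lower by some amount. CHST2, CHST3, CHST12, CHST14 and CHST15 were higher by some amount, as CHST12 at 5.43 and 6.41 FPKM. SLC9A7 stood at 9.63 and 1.8 FPKM and SLC9A8 at 1.6 and 3.39 FPKM beside SLC9A9. Beside ABCA4, 6 ABCA relatives reached 1 FPKM, of which 2 were at least 1.5-fold lower and 0 at least 1.5-fold higher. ABCA10 stood at 7.83 and 0.517 FPKM, whereas ABCA7 stood at 9.14 and 11.4 FPKM and ABCA5 at 1.51 and 2.11 FPKM.

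**Figure D3:**
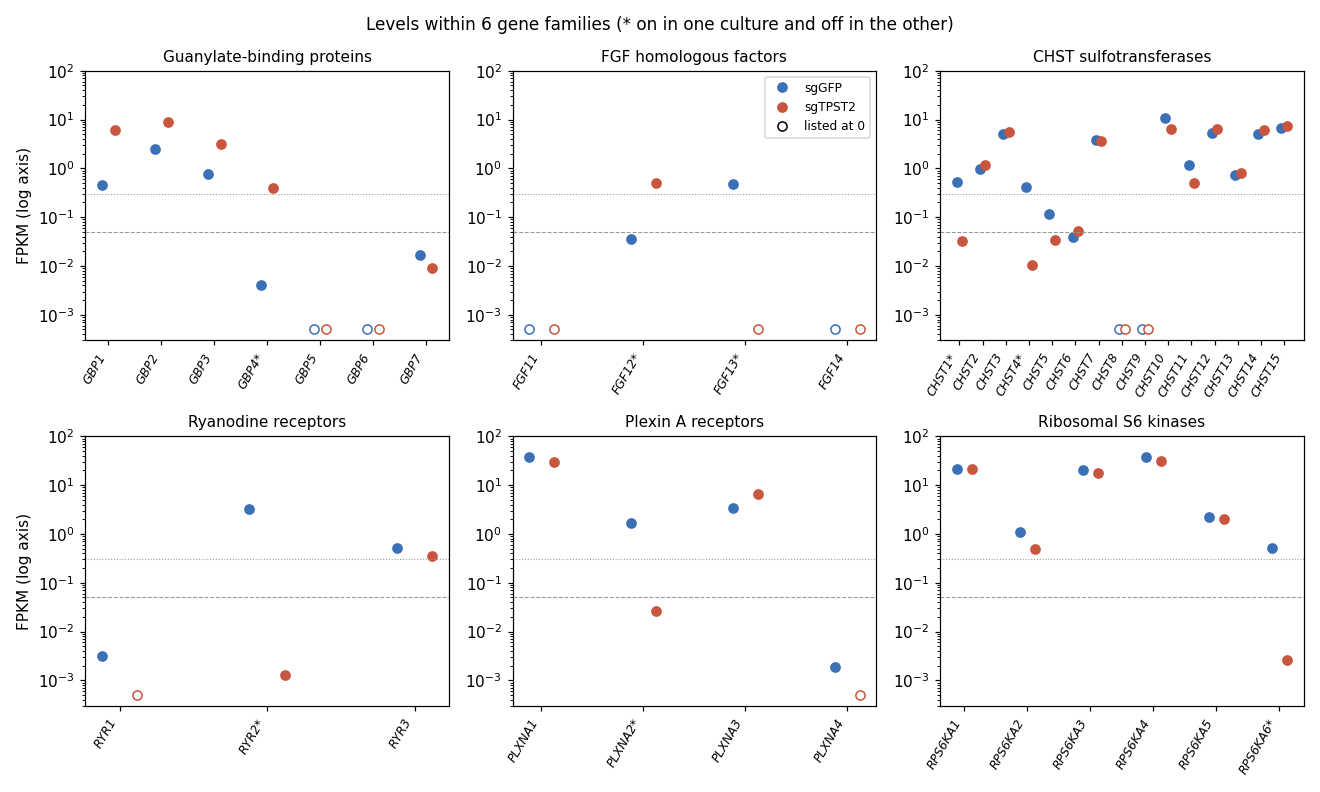
Levels of the members of 6 gene families in sgGFP (blue) and sgTPST2 (red), in FPKM on a log axis, with open circles for values listed at 0, stars at the on/off genes and lines at 0.05 and 0.3 FPKM. GBP1, GBP2, GBP3 and GBP4 were all higher in sgTPST2, whereas FGF12 and FGF13 were on in opposite cultures.

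The 67 genes lay on 19 of the 23 chromosomes counted (1 to 22 and X), with at most 8 on any of them. Those 8 are on chromosome 1, 0.612% of its tested protein-coding genes, beside 0.533% over all. Chromosome 4 had the highest share, 1.37%. Chromosome X had 4, or 1.1%, all on in sgGFP, as 55 of the 67 genes are. Only 2 of the 67, or 2.99%, had another within 1 Mb, the pair CREB3L3 and LRG1 on chromosome 19, which lie 363355 bases apart. The rule had left out clustered families by symbol. With the 10 genes left out for HOXB, KLK, MT1, COL and ZNF symbols, PTX3 and SPARC added back, 8 of 77 (10.4%) had another within 1 Mb, TNFRSF11B with COLEC10 among them. Over 2 Mb the count for the 67 was 4 (5.97%), with HIST1H2BI and OR2B6 on chromosome 6 added. Of all 12580 tested protein-coding genes, 99.6% have another within 1 Mb, a value set by the density of genes and not comparable with the count for 67. Of 162 tested genes on 12p, 1 was in the set (PKP2), and none was on chromosome 2 from 190 to 230 Mb.

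Genes of any type read as on/off lay within 200 kb of 7 of the 67 genes. There were 8 such neighbours, all on in sgGFP, and 5 of them lay next to a gene on in sgGFP, as 55 of the 67 genes are. LRP1B overlapped the transcript AC078882.1, which stood at 7.73 FPKM in sgGFP and was listed at 0 in sgTPST2, on the same strand. TNFRSF11B lay 43252 bases from COLEC10, a collectin whose symbol the rule left out and which stood at 1.96 and 0.0385 FPKM. ABCA4 lay near the long non-coding RNAs AC097059.1, at 1.59 FPKM and listed at 0, and AC097059.2, at 0.585 FPKM and listed at 0. The other 3 lay next to DNAH10, TMEM265 and PRDM6, which are on in sgTPST2.

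Genes within 500 kb of 8 of the loci were read above 0.3 FPKM to see how far a locus went with its gene. Of all 17437 tested genes above 0.3 FPKM in either culture, 50.1% were lower in sgTPST2 by any amount, the share beside which the counts stand. Around ABCA4, 7 of 12 other genes were lower in sgTPST2, and ARHGAP29, a GTPase-activating protein, stood at 6.82 FPKM in sgGFP and 0.0801 FPKM in sgTPST2. Around AFF3, 7 of 14 were lower, among them LONRF2 at 7.73 and 0.356 FPKM. Around BNC1, 4 of 9 were lower, among them HDGFL3 at 22.9 and 9.57 FPKM. Around GBP4, 7 of 13 were lower, although GBP1, GBP2 and GBP3 were higher. Around CREB3L3 and LRG1, 21 of 34 and 25 of 35 were lower, but 25 genes are in both windows, so these are not separate readings. Each of these windows holds genes that went either way, and TNFRSF11B and LRP1B had only 1 other gene each.

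**Figure D4:**
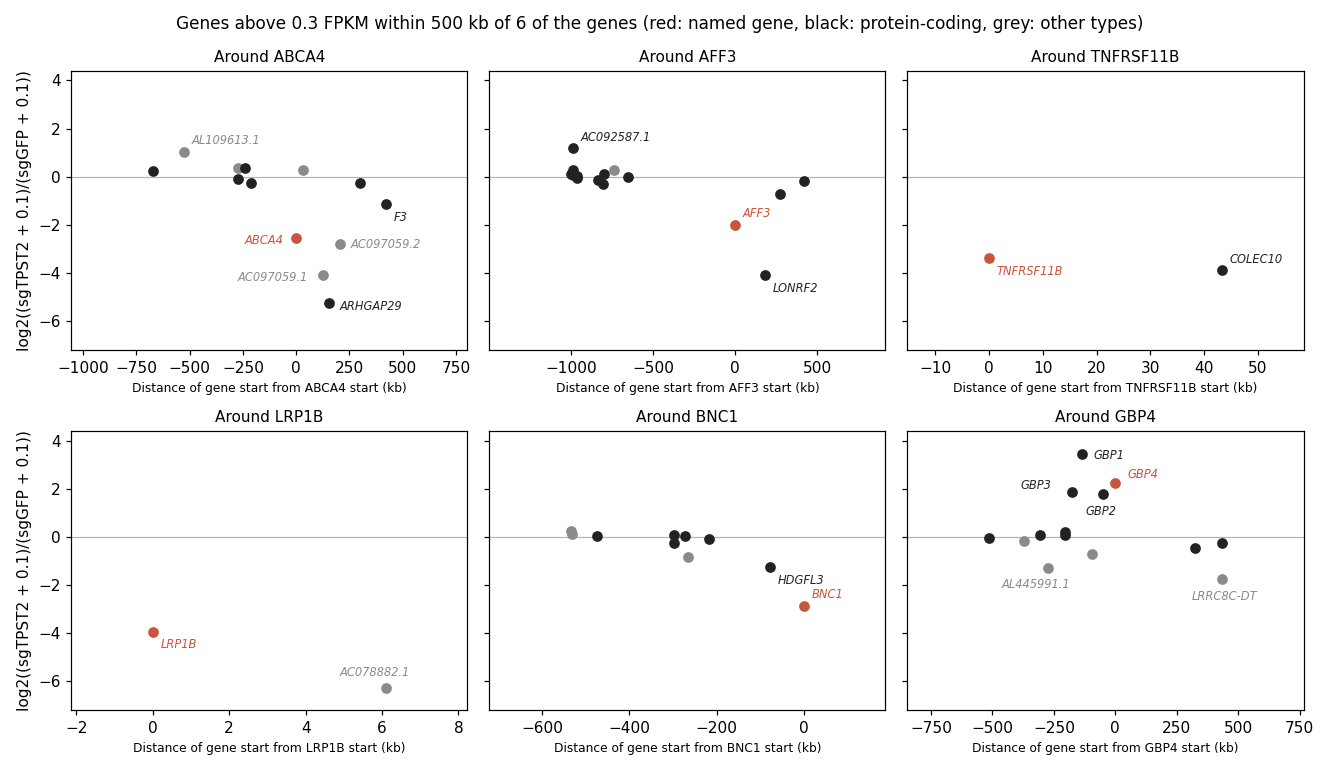
Difference between the cultures, log2((sgTPST2 + 0.1)/(sgGFP + 0.1)), of genes above 0.3 FPKM within 500 kb of 6 of the genes, against the distance between gene starts in kb. Red marks the gene named in the panel title, black other protein-coding genes and grey other types, and ARHGAP29 next to ABCA4 and LONRF2 next to AFF3 stand lowest among the protein-coding neighbours.

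The nearest expressed gene on each side gave a measure the rule did not use, with COLEC10 an exception. There were 134 such flanking genes at 1 FPKM or more in at least 1 culture. Of these, 110 flanked genes on in sgGFP, at a median distance of 127 kb, and 24 flanked genes on in sgTPST2, at 66.5 kb. The nearest such gene could lie beyond 1 Mb, as RPS6 at 5162698 bases from IZUMO3. The 110 had a median log2 difference of -0.07, with 13 (11.8%) at least 1.5-fold lower and 2 (1.82%) at least 1.5-fold higher. The other 11034 protein-coding genes at that level, those outside the 67, had a median of -0.001, with 5.82% lower and 3.16% higher. The 24 had a median of 0.07, with 4 (16.7%) lower and 2 (8.33%) higher. The median for all 134 was -0.07. Of the 110, 6 flanks reached 1 FPKM in 1 culture only, as did 4 of the 24. Such a flank had to differ by some amount, though not by 1.5-fold. COLEC10, among the 6, met the on and off levels of the rule and was left out by its symbol. Among flanks at 1 FPKM or more in both, 8 of 104 (7.69%) were lower and 2 (1.92%) higher next to genes on in sgGFP, beside 4.47% and 2.73% of 10552 genes. Next to genes on in sgTPST2 they were 2 lower and 2 higher of 20. Some flanks were far from this median, as KRT19 next to KRT16 stood at 189 and 12.8 FPKM. LAMB3, 1370550 bases from PLXNA2, at 1.81 and 0.132 FPKM, and HAPLN1, 55502 bases from VCAN, at 1.17 and 0.0577 FPKM, are among those that passed through 1 culture. Both flanks of PKP2 on 12p were lower, YARS2 at 84.8 and 33.9 FPKM and ALG10, 1125441 bases away, at 10.8 and 4.16 FPKM. Both flanks of FGF12 on chromosome 3 were higher in sgTPST2, as FGF12 was. MB21D2, 29051 bases away, stood at 34 and 51.7 FPKM, and CCDC50, 740725 bases away, at 48.3 and 64.1 FPKM.

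**Figure D5:**
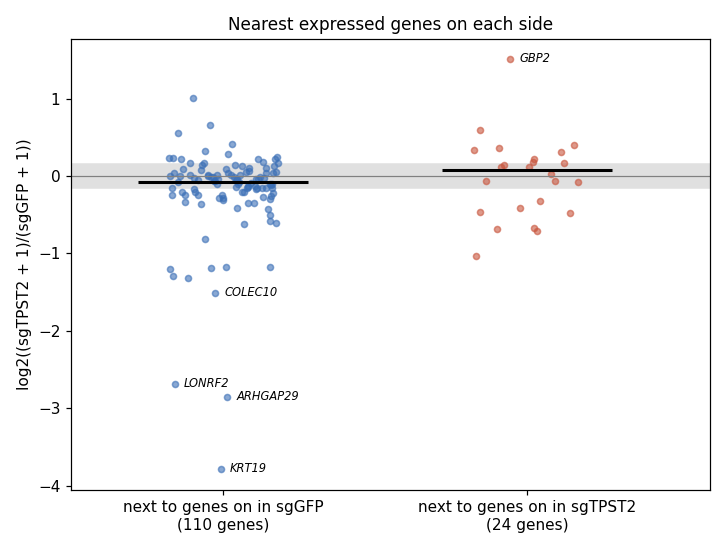
Difference between the cultures, log2((sgTPST2 + 1)/(sgGFP + 1)), of the nearest gene at 1 FPKM or more in either culture on each side of the genes on in sgGFP (110 genes) and on in sgTPST2 (24 genes). Black bars are medians, the grey band holds the middle quartiles of all protein-coding genes, and KRT19, ARHGAP29 and LONRF2 lie lowest.

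The genes were long at the median, though not all of them were. Their span on the chromosome had a median of 73.7 kb for the 55 and 108 kb for the 12, against 32.1 kb for all tested protein-coding genes and 30.2 kb for 2072 low-level genes, those between 0.3 and 3.21 FPKM in both cultures. Spans over 100 kb made up 41.8% of the 55 and 58.3% of the 12, against 18.5% of all and 21.6% of the low-level genes. Spans over 500 kb made up 12.7% and 25%, against 1.04% and 1.88%. LRP1B, RYR2 and FGF13 are among them. The lower quartiles of span lay closer, at 15.7 kb in the 55 and 14.3 kb in the 12. They were 12.9 kb in all tested protein-coding genes and 10.7 kb in the low-level genes. The low-level genes were read in both cultures and the on/off genes in 1, and the part of this in the spans was not tested. The longest transcript had a median of 3883 bases in the 55 and 5430 in the 12, against 3321 in all and 3435.5 in the low-level genes, and the part of transcript length in the spans was not tested.

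Reads of other genes could enter some of these values, and the sources used here do not say whether the counting used strand. Of the 67 genes, 9 overlapped a gene above 0.3 FPKM. MAP3K15 overlapped PDHA1, a pyruvate dehydrogenase subunit at 364 and 288 FPKM, on the opposite strand. MSMP overlapped RGP1, at 3.58 and 3.56 FPKM, also on the opposite strand. TMEM265 overlapped SRCAP and AC106886.5, and LEMD1 overlapped BLACAT1, at 0.675 and 0.0816 FPKM, on the same strand. The other 5 overlapped CCDC92, ZNF19, AC078882.1, INTS12 and CLDN12. Sequence shared with a gene elsewhere covered at least 20% of 1 of the 67, KRT16, whose pseudogene KRT16P1 covers 35.9% and was listed at 0 in both. A gene at an overlapping locus covered at least 20% of another 3. MSMP is covered 100% by RGP1, TMEM265 100% by AC106886.5, at 0.827 and 0.856 FPKM, and SLC27A2 23.4% by ATP8B4, listed at 0 in both. The MSMP transcript is thus wholly covered by a gene on the opposite strand, and the TMEM265 transcript by a gene on the same strand. Both of these covering genes were read in both cultures. Whether any value holds reads of another gene was not tested.

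Genes just inside and just outside the levels show how the rule drew its line. Inside, AFF3 stood at 0.317 and 0.00524 FPKM, MSMP at 0.324 FPKM and listed at 0, and LRIG3 at 0.329 and 0.012 FPKM. Outside, TH stood at 0.292 and 0.0154 FPKM, ITGB6 at 0.29 FPKM and listed at 0, and PKIB at 0.288 FPKM and listed at 0. With 17 genes between 0.25 and 0.3 where on and 46 between 0.05 and 0.1 where off, the line in this direction cut through a run of values. MAP3K15, NPTX1 and FSTL5 had the highest off levels inside, at 0.0494, 0.0464 and 0.0458 FPKM, and RASGRF1, PPP1R14C and PRAG1 lay just outside at 0.0518, 0.0529 and 0.053 FPKM. In the other direction DNAH10, HIST1H2BI and VCAN were lowest inside where on, at 0.301, 0.316 and 0.329 FPKM, while JPH1, PDE4C and BOLL lay outside at 0.298, 0.291 and 0.282 FPKM. PRDM6 and IL15 were highest inside where off, at 0.0479 and 0.0429 FPKM, and CCL5, NDST3 and PPL lay outside at 0.0603, 0.062 and 0.0626 FPKM. There were 10 and 22 genes in the same ranges outside.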

How the data were processed

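Total RNA libraries, made with a stranded kit per the labels' protocols, were sequenced from 1 sgGFP and 1 sgTPST2 culture. The build hg38 and the tools STAR and Cuffdiff come from the submitters' processing notes, while versions, annotation and strand setting were not given in the sources used here. Per the file headers, the deposited table holds a value for every gene in both cultures, p-value and q-value columns, and a log2 fold change that equals log2((sgTPST2 + 1)/(sgGFP + 1)) to within 2.1e-15. The table's test statistic, a score per gene from the authors, was not used. The header names no unit for the levels, and the deposited values were read as FPKM. They sum to 1010100 and 1000900. All 58698 identifiers match GENCODE release 29 (GRCh38), the source of coordinates.

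The 67 genes, their lists, families and roles were chosen with earlier results of these data known. Named were the 15 highest genes per direction, genes with another within 1 Mb, lists with at least 3 of them, the 3 genes either side of each level, and TPST2; every other name was chosen after its values were seen. With 1 library per condition there was no test.

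Depth was read from low values of genes with 1 transcript over 1500 bp: 92.8% of 699 values in sgGFP and 93.6% of 688 in sgTPST2 lay within 0.1 of a whole fragment, after fitting the step and offset on these values. A count of 0 allows up to 3 fragments, or 0.0714 and 0.063 FPKM for a transcript of 1 kb. The flank scale adds a pseudocount of 1 and takes genes at 1 FPKM or more. Steps were checked on simulated data. Similarity used blastn 2.17.0 (identity of 95%), with Python 3.11.15, pandas 2.3.3, numpy 2.4.6, scipy 1.17.1 and matplotlib 3.10.9. A check of CpG content over the set is void because 49 of 67 genes (73.1%) have a promoter in the table.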

Additional observations from a re-analysis of the deposited data

How the results depend on the processing

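No paired analysis was possible because sgGFP and sgTPST2 have 1 library each. The counts of genes on in sgGFP and on in sgTPST2, 55 and 12, moved with the levels chosen: 35 and 7 with off under 0.02 FPKM, 101 and 34 with off under 0.1, 28 and 4 with on above 0.5, and 9 and 0 with on above 1. Without genes listed at 0 they were 38 and 7. Scaling to the same sum gave 55 and 12, and to the same upper quartile 54 and 13. Without the status filter they were 57 and 12, and with the symbol pattern alone 61 and 15. More genes were on in sgGFP than in sgTPST2 in each of these. Genes with another within reach were 2 at 1 Mb, 2 at 0.5 Mb and 4 at 2 Mb. The flank median of -0.07 lay between -0.07 and -0.05 under the other pseudocount, filters and scaling, including a filter chosen after seeing the data that keeps flanks at 1 FPKM or more in both cultures (-0.06). The alternative CpG threshold was not run, since that check is void. Depth limits short genes: at 1 kb a count of 0 allows a level of up to 0.0714 FPKM in sgGFP and 0.063 FPKM in sgTPST2, above the 0.05 FPKM that counts as off.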

Other observations

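Genes that are not protein-coding met the same levels about equally often in both directions, 240 on in sgGFP and 252 on in sgTPST2, whereas protein-coding genes numbered 72 and 17. Processed pseudogenes made up 77 and 84 of these, antisense RNAs 40 and 42, long intergenic RNAs 27 and 22, and miscellaneous small RNAs 35 and 43. Many of these are short, so that 0.3 FPKM stands for few fragments. Over all genes tested the background was 1.68% on in sgGFP and 1.45% on in sgTPST2.

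The rule left out 10 protein-coding genes by family symbol or name, and all 10 were on in sgGFP. Clone-based and hyphenated symbols removed another 7 on in sgGFP and 5 on in sgTPST2. COLEC10, a collectin, stood at 1.96 and 0.0385 FPKM, and it was left out because its symbol starts like a collagen's. ZNF462, a zinc finger protein, stood at 0.494 and 0.0139 FPKM.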
